A study of Drosophila melanogaster with 6 samples.

Results

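The hrp36 peak list comes from chromatin immunoprecipitation followed by sequencing (ChIP-seq) in S2 cells, a Drosophila melanogaster line grown from cultures of late-stage embryos. It was taken as deposited, every entry of the list being a member. It holds 1020 of the 1958 peaks in the study's 2 lists, and the other 938 form the hrp48 list, used here only as background. The labels give 2 hrp36 immunoprecipitates, numbered 1 and 2, and 2 inputs that are 10% of the chromatin. The 2 hrp48 immunoprecipitates carry the same numbers. All cells were fixed in 1.8% formaldehyde for 10 minutes, and the labels name no treatment, genotype or further agent. The series title concerns linker histone H1 and RNA associated with heterochromatin, and the list bears on where hrp36 was found on arms and heterochromatin.

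The table of RefSeq genes gives hrp36 as a synonym of Hrb87F. Its product is a heterogeneous nuclear ribonucleoprotein (hnRNP) of the A/B type, which coats nascent transcripts and follows them through packaging and splicing. In fly nuclei such proteins are also held in omega speckles, nucleoplasmic bodies built on the long noncoding hsr-omega RNA. A ChIP peak of an RNA-binding protein can therefore mark a place where the protein is held near DNA through RNA, and need not mark contact with DNA. Pericentric heterochromatin of flies is rich in transposable elements and satellite repeats, and many of its copies were never placed on a chromosome in the assembly.

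The list carries a sequence name, a start, an end and a running name for each peak, with no score, fold enrichment or read count. A single list stands for both immunoprecipitates, so no value below has a replicate error, no test was run, and read depth is unknown. Intervals of shares are exact Clopper-Pearson 95% intervals, and those of median gaps are exact 95% intervals from the ranked gaps. They cover the number of peaks or gaps only. Coordinates are of dm3 and count from 1. Names of sequences gave 3 classes. The arms were X, 2L, 2R, 3L, 3R and chromosome 4, the Het sequences hold mapped heterochromatin, and U and Uextra hold unplaced scaffolds. The extent of a sequence is its length up to the last peak of either list.

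Coverage of hrp36 was led by the arms, although most peaks were not on them. The arms held 346 peaks (33.9%) but 55.3% of the 2718 kb under peaks. U and Uextra held 608 peaks (59.6%) and 33.4% of the covered bases. The 66 peaks of the Het sequences (6.47%) made up 11.3% of it. An average arm peak thus spanned far more sequence than an average unplaced peak.

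Relative to extent, the Het sequences were the most densely covered class. There hrp36 peaks took up 3.47% of the extent, against 2.35% on unplaced sequence and 1.26% on the arms. Within the Het sequences, coverage was 4.74% on 3RHet, 3.33% on 2LHet, 3.30% on 2RHet, 2.71% on 3LHet and 1.58% on YHet. Each Het sequence was above 3R, the least covered arm with 0.933%. YHet was nevertheless below 2L, the arm with the highest coverage at 1.84%. Coverage was 1.33% on 2R, 1.15% on 3L, 1.12% on X and 0.948% on chromosome 4.

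Set beside the background list, hrp36 covered more of each arm and less of each Het sequence. On 2L the lists covered 18.4 kb per Mb for hrp36 and 15.0 for hrp48, and on X 11.2 and 10.1. Much of the 2L difference came from a single place. Of the 423 kb for hrp36 and 345 kb for hrp48 on 2L, 108 and 55.9 kb lay at 21555819 to 21796881. On 2LHet the values were 33.3 kb per Mb for hrp36 and 56.6 for hrp48, from 2 and 4 peaks. They were 27.1 for hrp36 and 32.7 for hrp48 on 3LHet, and 47.4 for hrp36 and 50.9 for hrp48 on 3RHet. The values were closer on 2RHet, at 33 for hrp36 and 34.6 for hrp48. On YHet they were 15.8 for hrp36 and 16.3 for hrp48, from 3 peaks in each list. On U both lists gave nearly the same coverage, 19.8 kb per Mb for hrp36 and 19.9 for hrp48. The lists share most of their peaks, which input served each list is not known here, and these differences were not tested.

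Wide peaks made up a large part of the arm and Het peaks and few of the unplaced ones. Of the arm peaks, 79 were under 1.5 kb wide, 33 were 1.5 to under 2 kb, 64 were 2 to under 4 kb, 126 were 4 to under 8 kb and 44 were 8 kb or more. The class from 4 to under 8 kb was thus the largest on the arms, followed by that under 1.5 kb. The 170 arm peaks of 4 kb or more (49.1%, interval 43.7 to 54.5%) held 77.8% of the arm coverage. The Het sequences had a like make-up, with 38 of 66 peaks at 4 kb or more (57.6%) and 81.5% of their coverage in those peaks.

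Unplaced sequence held mainly narrow peaks. On U and Uextra, 450 of 608 peaks were under 1.5 kb (74.0%) and only 13 reached 4 kb. U and Uextra were not alike in this. The median width was 1723 bp on U (interquartile range 1300 to 2700.5 bp) and 1292 bp on Uextra (1161 to 1428 bp). On U, 12 of 83 peaks were 4 kb or wider, against 1 of 525 on Uextra, at 204181 to 208674. Uextra joins short scaffolds end to end. Scaffold ends were not used here, and their part in the widths was not tested.

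**Figure D1:**
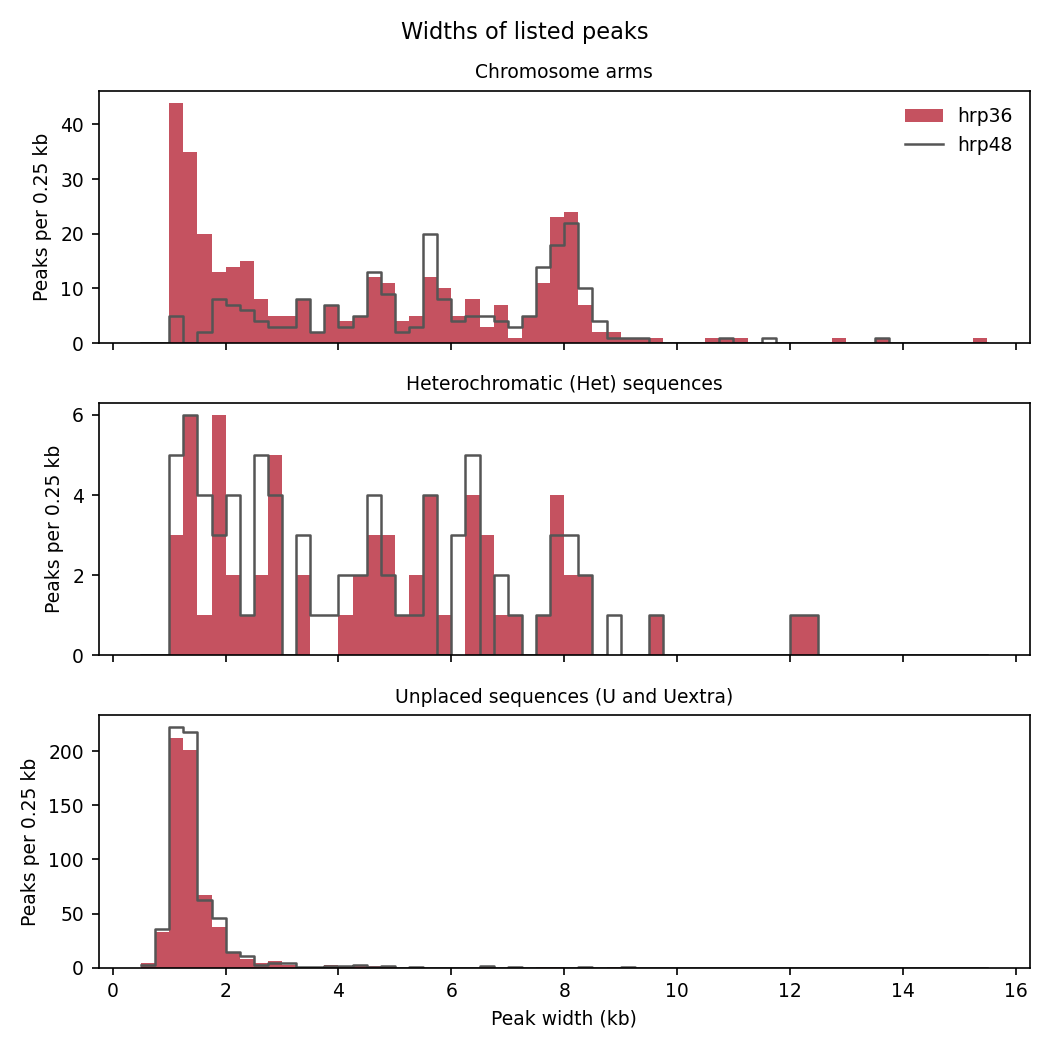
Number of peaks per 0.25 kb of width on arms, Het sequences and unplaced sequences, with hrp36 as filled bars and hrp48 as a line. On the arms hrp36 has a group of narrow peaks near 1.25 kb that the hrp48 list mostly lacks, and both lists have a group near 8 kb.

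Among the wide arm peaks, widths gathered around 8 kb. Between 7.5 and 8.5 kb lay 65 arm peaks (18.8%), which covered 519 kb or 34.5% of all arm coverage. Per 0.25 kb of width there were 11 peaks from 7500 bp, 23 from 7750 bp, 24 from 8000 bp and 7 from 8250 bp. On either side were 1 peak from 7000 bp, 5 from 7250 bp and 2 from 8500 bp. The group therefore stood out from its flanks. Its median width was 7991 bp, with an interquartile range of 7798 to 8126 bp. These limits were chosen after the widths had been seen.

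The 8 kb group was spread over all long arms. It had 16 members on 2L, 14 on 2R, 16 on 3L, 12 on 3R and 7 on X, and 0 on chromosome 4. The Het sequences had 9 peaks of this width (13.6%) and the unplaced sequences 2 (0.329%). The hrp48 list held 64 arm peaks of these widths. Of the 65 hrp36 members, 62 overlapped an hrp48 peak, so the group belonged to both lists. Smaller groups of arm peaks lay at 4500 to 4999 bp, with 23 peaks, and at 5500 to 5999 bp, with 22 peaks. Between them, from 5000 to 5499 bp, there were 9.

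The narrowest arm peaks formed a group of a different kind. The 79 arm peaks under 1.5 kb had a median width of 1237 bp (interquartile range 1174 to 1332 bp). The hrp48 list had 5 arm peaks of that width. On 3R these narrow peaks numbered 27 of 70, on 2R and 3L 17 each of 69 and 67, on 2L 11 of 85 and on X 6 of 52. Unlike the 8 kb group, they were most numerous on 3R and few on 2L. Of the long arms, X held the fewest of both, 6 narrow peaks and 7 of the 8 kb group. The hrp36 medians of the arms were lowest on 3R, at 2114 bp, and highest on 2L and X, at 4838 and 4823 bp. On 2R the median was 2626 bp and on 3L 3336 bp.

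On the arms, the share of hrp36 peaks that met an hrp48 peak was higher in wider peaks, and alike in both classes from 4 kb. It was 7.59% under 1.5 kb (6 of 79, interval 2.84 to 15.8%), 33.3% from 1.5 to 2 kb (11 of 33) and 46.9% from 2 to 4 kb (30 of 64). For 4 to 8 kb it was 88.9% (112 of 126, 82.1 to 93.8%) and for 8 kb or more 88.6% (39 of 44, 75.4 to 96.2%). Narrow width by itself did not go with absence from the hrp48 list. On unplaced sequence, 428 of 450 peaks under 1.5 kb met an hrp48 peak (95.1%, 92.7 to 96.9%). On the Het sequences it was 7 of 9. Narrow peaks thus had a low share on the arms but not in the other classes of sequence. The lists give no score, so whether the narrow arm peaks lay near the calling threshold was not tested.

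**Figure D2:**
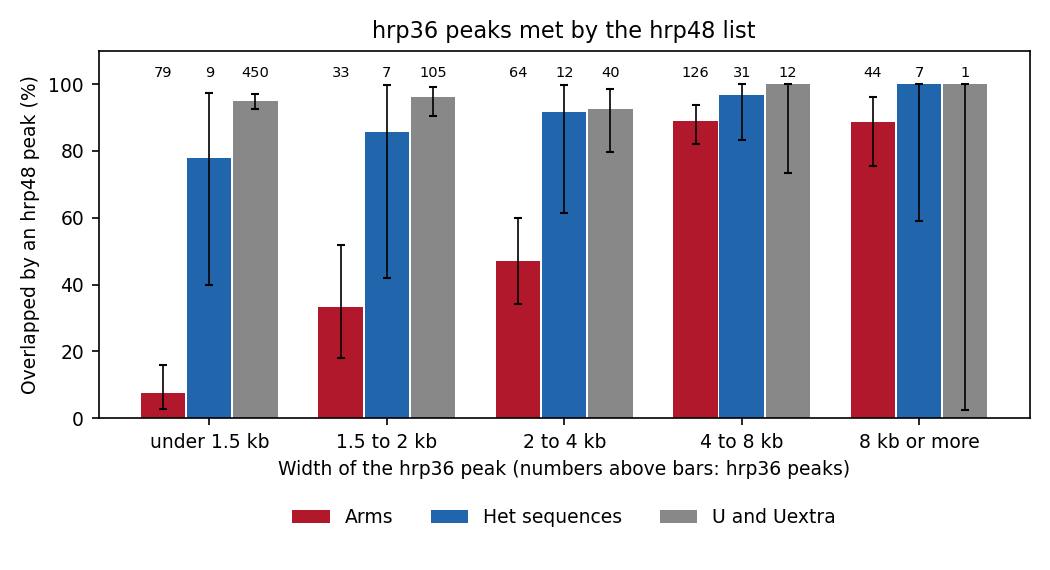
Share of hrp36 peaks overlapped by at least 1 bp of an hrp48 peak, by width of the hrp36 peak and class of sequence, with exact 95% intervals as error bars and the number of hrp36 peaks above each bar. On the arms the share climbs to 88.6% for peaks of 8 kb or more from 7.59% for those under 1.5 kb, while on unplaced sequence it is 92.5% or more in every class.

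Wide arm peaks without an hrp48 counterpart were few. Of the 170 peaks of 4 kb or more, 19 met no hrp48 peak. Over all widths, 198 of 346 arm peaks met one (57.2%). The 19 wide unmet peaks were 9 of 49 wide peaks on 2L, 4 of 33 on X and 2 of 29 on 2R. On 3L they were 2 of 30 and on 3R 2 of 28. The widest of the 19 was the widest peak of the list, at chr2R:6509627-6524879 (15253 bp). On 3R both had widths near the 8 kb group, chr3R:6206503-6214827 (8325 bp) and chr3R:15530955-15538937 (7983 bp), and a like one was at chr2L:12933600-12941700 (8101 bp). On X the widest was chrX:21405144-21415688 (10545 bp). The 2L peaks were concentrated, since 6 of the 9 lay in a cluster of 19 hrp36 peaks at chr2L:21555819-21796881, called the 2L cluster below.

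The widest peak of every other sequence met an hrp48 peak, and most had a counterpart of nearly equal width. On 3R it was at 3554920 to 3563388, with 8469 bp for hrp36 and 8594 bp for hrp48. On 3LHet it was at 1121323 to 1128329, with 7007 and 7050 bp for hrp36 and hrp48. On U it was at 1539755 to 1548685, with 8931 bp for hrp36 and 9027 bp for hrp48. An exception was 3L, where the widest hrp36 peak, chr3L:101049-110426, had 9378 bp and its hrp48 counterpart 6992 bp. The 3 sequences with the fewest peaks can be given whole. Chromosome 4 had peaks of 8755, 2255 and 1203 bp, of which the narrowest met no hrp48 peak. 2LHet had peaks of 5408 and 4686 bp and YHet peaks of 1792, 1603 and 1043 bp, and all 5 met an hrp48 peak.

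Peaks on the arms were far apart as a rule. Over 340 gaps, measured from the end of a peak to the start of the next, the median was 200.4 kb (exact interval of the median 153 to 251 kb) and the quartiles were 46.7 and 488 kb. On the Het sequences the median of 61 gaps was 86.9 kb (46.4 to 118 kb). On unplaced sequence the median of 606 gaps was 39.2 kb, a figure with no chromosomal meaning because scaffolds are joined there. Among the 5 long arms, the median gap was lowest on 2L, at 114 kb, and highest on X and 3R, at 269.8 and 261 kb. The 2 gaps of chromosome 4 had a median of 468 kb. The medians of 2R and 3L were 173 and 208 kb. The exact intervals of these arm medians overlapped, at 38.9 to 200.5 kb on 2L and 154 to 423 kb on X.

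Very short gaps were also present. Of the arm gaps, 15 of 340 were at most 1 kb (4.41%), 41 at most 10 kb (12.1%) and 125 at most 100 kb (36.8%). Of those 15, 10 were on 2L, most of them in the 2L cluster. On the Het sequences 14 of 61 gaps were at most 10 kb (23.0%). Spacing on both classes therefore combined a minority of close neighbours with long empty stretches.

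**Figure D3:**
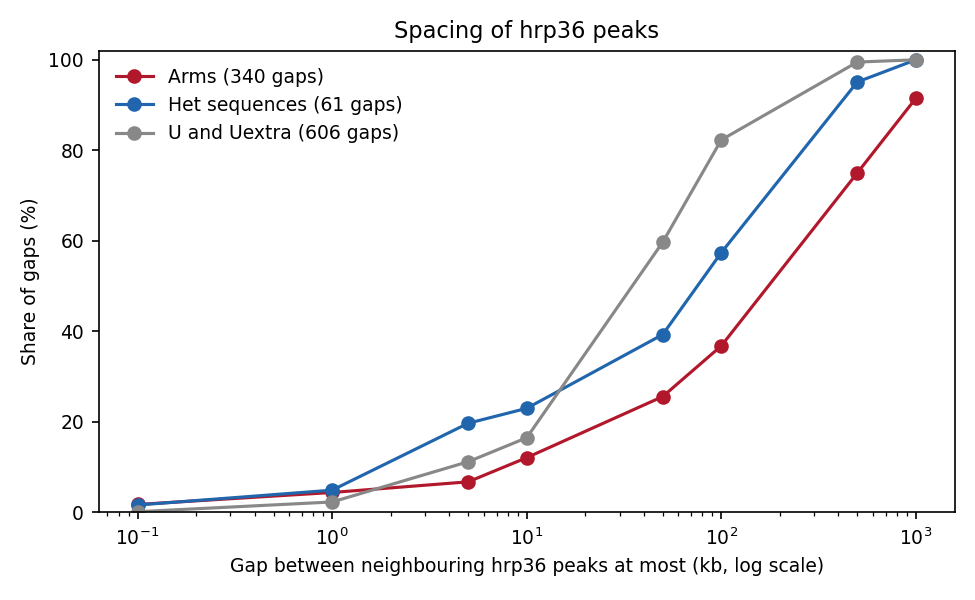
Share of gaps between neighbouring hrp36 peaks that are at most as long as the value on the log-scaled horizontal axis in kb, for arms, Het sequences and unplaced sequences. At 10 kb the shares are 12.1% on arms, 23.0% on Het sequences and 16.5% on unplaced sequence, and at 100 kb they are 36.8%, 57.4% and 82.3%.

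Some neighbours were so close that the number of peaks depended on where a border was set. On 3L, peaks at 7370094 to 7372004 and 7372017 to 7373943 were 12 bp apart, and a single hrp48 peak spanned both. On 2RHet, peaks at 361401 to 369435 and 369514 to 370943 were 78 bp apart. The opposite also occurred. On 2L the hrp36 peak at 21604703 to 21611495 faced 2 hrp48 peaks.

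The longest stretches without an hrp36 peak lay within the arms. On 2R there was none from 16826491 to 19948598 (3.12 Mb), and on 3R none from 8751424 to 10920864 (2.17 Mb). On X the longest stretch was 15311605 to 17191786 (1.88 Mb), on 2L 4609382 to 6363142 (1.75 Mb) and on 3L 11264887 to 12950792 (1.69 Mb). On chromosome 4 it was 349061 to 860348 (0.511 Mb). The hrp48 list had no peak of its own in these stretches either, apart from 1 in that of X. Of 124 windows of 1 Mb along the arms, 10 held no hrp36 peak, 31 held 1, and the median was 2.

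Runs were defined as chains of 2 or more hrp36 peaks with gaps of at most 10 kb. There were 115 runs with 270 peaks (26.5% of the list), of which 90 were pairs, 19 had 3 peaks and 6 had more. On the arms 66 of 346 peaks (19.1%) were in 25 runs. On the Het sequences 25 of 66 (37.9%) were in 11 runs, and on unplaced sequence 179 of 608 (29.4%) in 79 runs. Because scaffolds are joined on unplaced sequence, its runs, like its gaps, have no chromosomal meaning. Runs of the hrp48 list held 28 of 218 arm peaks (12.8%), 35 of 77 Het peaks (45.5%) and 203 of 643 unplaced peaks (31.6%).

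Runs were unevenly spread over the arms. On 2L, 26 of 85 peaks (30.6%) were in 7 runs, and on 3L 15 of 67 (22.4%) in 6 runs. The 2L runs of 9 and 6 peaks and a run of 2 lay in the 2L cluster, so the 2L share rested largely on that place. Outside the cluster 2L had 66 peaks. Without the cluster the arms had 22 runs with 49 peaks. On X 10 of 52 peaks (19.2%) were in 5 runs and on 2R 11 of 69 (15.9%) in 5 runs. On 3R only 4 of 70 peaks (5.71%) were in runs, both of them pairs. Of the long arms, the one with the most narrow peaks thus had the fewest peaks in runs. All runs of X were pairs as well.

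The largest run was on 2L, from 21645624 to 21725150. Its 9 peaks covered 56.2 of 79.5 kb (70.7%). In order along the arm their widths were 7858, 4385, 3862, 4250, 12813, 6044, 2746, 6377 and 7898 bp. The outer peaks had widths of the 8 kb group and were the only 2 that met an hrp48 peak. The inner 7 met none, although an hrp48 peak of 4676 bp lay in a gap between them, at 21669330 to 21674005. The next run on 2L, from 21572709 to 21611495, had 6 peaks over 38.8 kb. Its 3 peaks at the low-coordinate end, of 6516, 3244 and 3332 bp, met no hrp48 peak, and the other 3 did. A pair of 4690 and 11151 bp followed at 21739725 to 21761492, both met by hrp48 peaks.

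These runs are part of the 2L cluster, whose 19 hrp36 peaks covered 108 kb of its 241 kb, or 25.5% of the hrp36 coverage of 2L. The hrp48 list had 12 peaks and 55.9 kb at the same place. Of the 19 peaks, 13 were 4 kb or wider, 9 met an hrp48 peak, and the median width was 5154 bp. Over all of 2L, 48 of 85 hrp36 peaks met one (56.5%). The window of 1 Mb from 21 Mb on 2L, with 21 peaks, had the most of any arm window. The next highest windows had 11 peaks, at 1 to 2 Mb of 2R and at 16 to 17 Mb of 3L.

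The runs of 3 or more peaks on 3L were of hrp36 alone. The run from 16029743 to 16054961 had 4 peaks of 2048, 2740, 3345 and 1553 bp, which covered 9.69 of 25.2 kb. The run from 16640371 to 16656145 had 3 peaks of 2156, 4750 and 3895 bp, which covered 10.8 of 15.8 kb. No hrp48 peak lay in either run. In the whole window of 16 to 17 Mb, 2 of 11 hrp36 peaks met an hrp48 peak, and widths ran from 1553 to 7335 bp. Over all of 3L, 35 of 67 hrp36 peaks met one (52.2%).

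The largest runs of 3LHet and 2R matched the background list peak by peak. The run at 1069870 to 1102603 of 3LHet had 5 peaks of 4820, 1763, 3286, 6264 and 4798 bp, and all 5 met 1 of 5 hrp48 peaks. The run at 1266120 to 1288120 of 2R had peaks of 1759, 7208 and 2290 bp, and its 3 hrp48 counterparts were 1752, 7273 and 2204 bp wide. A further run of 3 was at 22464613 to 22474892 of 2L, with 92.6% of its 10.3 kb covered and 2 of its 3 peaks met. The pair at 153376 to 177558 of 3RHet covered 17.5 of 24.2 kb, and that at 16141131 to 16161183 of 2L covered 13.2 of 20.1 kb.

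**Figure D4:**
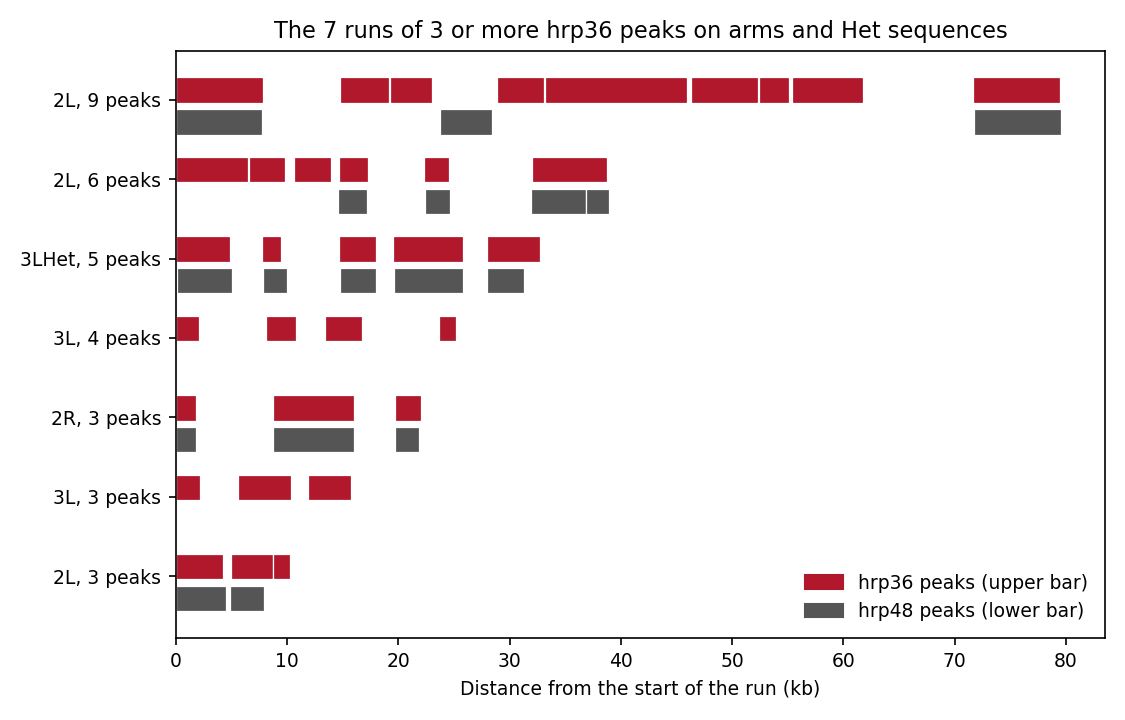
The 7 runs of 3 or more hrp36 peaks outside U and Uextra, each drawn from its own start in kb, with hrp36 peaks as the upper and hrp48 peaks as the lower bars. The runs of 4 and 3 peaks on 3L have no hrp48 peak, while those on 3LHet and 2R are paired throughout, and in the run of 9 peaks on 2L hrp36 and hrp48 coincide only at the ends.

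On U and Uextra the runs had a median span of 7.35 kb, against 12.5 kb on the arms. Runs on U and Uextra can cross joined scaffolds, so these spans are not alike in kind. The largest was at 13419363 to 13431579 of Uextra, with 5 peaks of 1240 to 1471 bp, all met by hrp48 peaks. The next had 4 peaks over 25.9 kb, from 11198612, and the third 3 peaks over 19.0 kb, from 8528689. Every peak of these runs met an hrp48 peak. Over all unplaced runs 170 of 179 peaks did, close to the 409 of 429 (95.3%) among single unplaced peaks.

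Arm peaks in runs had a lower median width than those standing alone, with overlapping quartile ranges. The median width was 3288 bp for the 66 peaks in runs (interquartile range 1915 to 5391 bp) and 4306 bp for the 280 single peaks (1502 to 7368 bp). Without the 2L cluster the medians were 2290 bp in runs and 4212 bp for single peaks. Among arm peaks of 4 kb or more, 18 of 27 in runs met an hrp48 peak (66.7%, 46.0 to 83.5%), against 133 of 143 single peaks (93.0%, 87.5 to 96.6%). Of those 9 unmet peaks in runs, 6 were in the 2L cluster. Among arm peaks under 4 kb the order was the other way, with overlapping intervals. Met were 15 of 39 in runs (38.5%, 23.4 to 55.4%) and 32 of 137 single peaks (23.4%, 16.6 to 31.3%). These narrow peaks also differed in width, with a median of 2048 bp in runs and 1495 bp for single peaks. Since the share met was higher in wider arm peaks, a difference at equal width was not tested.

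Wide and narrow hrp36 peaks had similar shares next to the centromere. The 5 long arms were divided into 10 parts of equal extent. The part next to the centromere held 42 of 169 peaks of 4 kb or more (24.9%, 18.5 to 32.1%) and 41 of 174 narrower ones (23.6%, 17.5 to 30.6%). Leaving out the 2L cluster gave 18.6% (29 of 156) for wide and 20.8% (35 of 168) for narrow peaks. The 8 kb group had 11 of 65 members there (16.9%, 8.76 to 28.3%). In base pairs this part held 384 kb, or 25.8% of the coverage of the long arms.

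The other parts had no steady gradient. Counted from the telomere, the parts held 28, 31, 18, 27, 21, 28, 34, 42, 31 and 83 hrp36 peaks. The hrp48 list had 16, 19, 11, 14, 21, 16, 15, 18, 22 and 64 in the same order. Of peaks under 4 kb on the long arms, 41 of 174 for hrp36 and 24 of 54 for hrp48 were in the part next to the centromere, a difference that was not tested. The arms also differed among themselves. Next to the centromere were 29 peaks on 2L, 20 on 2R, 14 on 3L, 9 on 3R and 11 on X. On 3R, 2 other parts held 10 peaks each, more than the 9 next to the centromere.

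**Figure D5:**
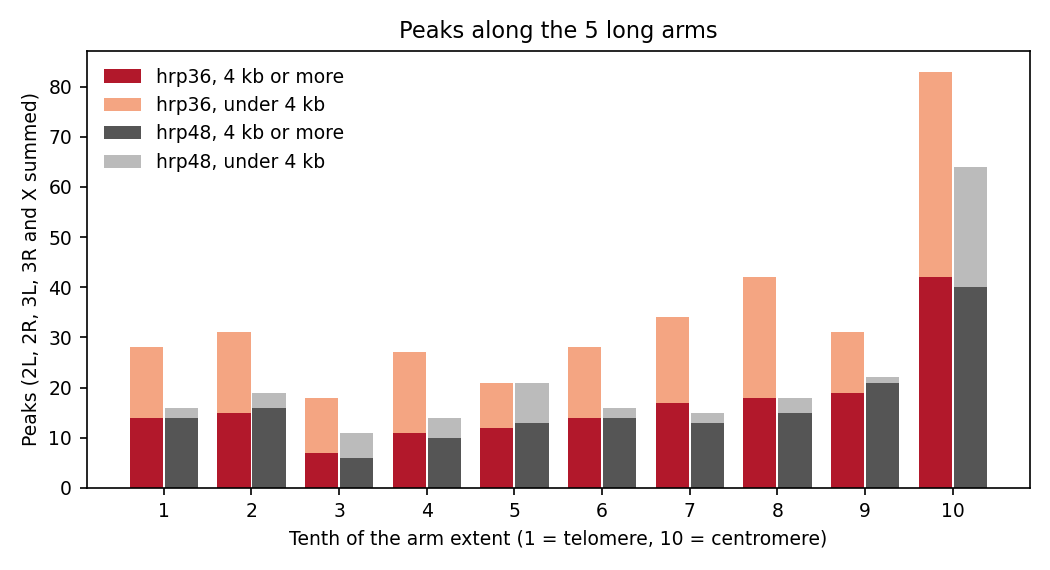
Peaks of 4 kb or more and under 4 kb in 10 equal parts of the extent of the 5 long arms, summed, from telomere (1) to centromere (10), with hrp36 to the left of hrp48 in each pair of bars. The last part holds 83 hrp36 peaks, 42 of them wide, and no other part holds more than 42 in all.

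Exact widths recurred mainly among narrow peaks. The 1020 peaks had 788 distinct widths, and 390 peaks (38.2%) had a width in bp that another hrp36 peak also had. Of these, 344 were under 1.5 kb and 7 were 4 kb or wider. In the whole list 52.7% of peaks were under 1.5 kb and 21.7% were 4 kb or wider. Narrow peaks are crowded into a short range of widths, where equal widths are more likely by construction. The commonest width was 1197 bp, with 6 peaks, then 1176, 1246 and 1332 bp with 5 each and 1123 bp with 4. Of these peaks, 21 of 25 (84.0%) were on unplaced sequence and 4 on arms, and of all peaks under 1.5 kb 450 of 538 (83.6%) were unplaced. In the hrp48 list 344 peaks (36.7%) shared a width. The 8 kb group of the arms was therefore a gathering of similar and not of identical widths.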

How the data were processed

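The authors deposited 1 peak list per antibody, with 4 columns and no header. The submitters' processing notes name the build dm3 and the tools MACS 1.4.2 and Bowtie2 2.2.2. Their roles and settings, the treatment of reads that map to several places, any pooling of replicates and the control used are not given in the sources used here. These steps decide whether repeat copies are listed and how wide a peak is.

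Starts were read as counted from 0. The 2L cluster is the peaks in a 300 kb stretch of 2L that stood out in earlier results. Widths, gaps, runs and overlaps (at least 1 bp) were computed with pandas 2.3.3, numpy 2.4.6 and scipy 1.17.1. Overlaps were checked with bedtools 2.31.1, and the functions were tested on simulated data. No sample has a value of its own, so nothing was compared over samples. The lists, width classes and run rule were chosen with earlier results of these data known. The rule for naming regions took the widest peak of each sequence, the 10 runs with the most peaks on arms and Het sequences and 3 on unplaced sequence. It also took the longest empty stretch of each arm, the 5 commonest widths and all peaks of sequences with at most 3. Other regions were named after their values were seen. Lengths, genes and sequence of dm3 were not used here, and no gene is named at a peak because the RefSeq table belongs to another release.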

Additional observations from a re-analysis of the deposited data

How the results depend on the processing

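Of 32 alternatives to 10 results, 11 of them chosen after seeing the data, 20 left the value within its interval or the count within 1.5 times. The share of hrp36 peaks on the arms, 33.9%, was 69.9% without Uextra and 69.4% for peaks of at least 2 kb. The share of wide arm peaks, 49.1%, was 55.5% with wide set at 3 kb and 39.9% at 5 kb. The median arm gap, 200.4 kb, was 269 kb for peaks of at least 2 kb. The 115 runs became 203 with a link of 50 kb and 24 for peaks of at least 2 kb. The 25 arm runs became 16 with a link of 5 kb, 52 with 50 kb and 13 for peaks of at least 2 kb. Peaks sharing a width numbered 814 within 5 bp, against 390 with exact width. The share met by hrp48 peaks, 82.2%, was 68.3% without Uextra. Each of these alternatives drops peaks or shifts a limit by its construction. Without the 2L cluster, the wide share, the median gap, both run counts, the 8 kb group and the shares of narrow and wide arm peaks met by hrp48 stayed in these ranges. No paired analysis was possible because the files carry no value per sample, and for the same reason no replicate could be left out. With no score, peaks of at least 2 kb stood in for a stricter threshold. Depth is unknown.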

Other observations

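Uextra was not evenly filled along its joined scaffolds. In steps of 5 Mb from its start it held 87, 88, 131, 110, 78 and 31 hrp36 peaks, and 90, 97, 133, 114, 87 and 38 hrp48 peaks. The median hrp36 width in the same steps was 1511, 1326, 1326, 1233, 1200.5 and 1123 bp. The last step is incomplete, since the extent of Uextra was 28.7 Mb. The order of scaffolds in Uextra was not used here, so these values describe the list only.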
